A study of Rattus norvegicus with 17 samples.

Results

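The comparison described here is between liver RNA of 5 bile duct-ligated rats infused with ghrelin and liver RNA of 6 bile duct-ligated rats infused with saline, 11 of the 17 rats of the study. Each rat gave 1 array of the Affymetrix rat whole-genome design, and the members were taken from the labels alone, without use of any measured value. Both groups had the bile duct ligated at week 7, carried an osmotic mini-pump under the skin, and were killed at week 9, 2 weeks later. The ghrelin group received recombinant ghrelin at 10 µg/kg/day and the saline group received the vehicle, so ligation is common to both groups. The 6 remaining rats were sham-operated and received saline. Their levels are given below for reference. Their arrays also entered the intensity filter, the choice of probe set and the shared estimate of spread behind every SE and p. No group analysed here combined a sham operation with ghrelin. The sources used here do not give the strain, sex or body weight of the rats.

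Ghrelin is an acylated peptide hormone of the stomach whose receptor is Ghsr, the growth hormone secretagogue receptor. It stimulates growth hormone release and food intake and shifts lipid handling in several tissues. Bile duct ligation blocks bile flow. Bile acids and pressure then injure hepatocytes, bile ducts proliferate, macrophages and neutrophils enter the liver, and hepatic stellate cells become matrix-producing myofibroblasts. Stellate cell products such as the fibrillar collagens, macrophage products such as chemokines, and hepatocyte functions such as lipid synthesis and drug metabolism are therefore the usual readouts of this model.

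Values are the deposited probe set intensities on the log2 scale, so a difference of 1 is a doubling of intensity. Of 14217 genes with a probe set of their own, 9736 passed the filter on low intensity and were tested. The ligated arrays correlated with each other at 0.947 to 0.986 over probe sets, and their median intensity was 16.1 to 17.5 under saline and 15.4 to 16.4 under ghrelin. The 8 hepatocyte markers, among them albumin (Alb), had a summed intensity of 195130.0 to 215376.0 under saline and 204463.0 to 217762.0 under ghrelin, so the labelled tissue carried its defining transcripts on every array. The RNA control measures were as follows. The 3' minus 5' difference of the beta-actin control probe sets was 1.94 ± 0.110 under saline (SD, n = 6) and 2.11 ± 0.302 under ghrelin (SD, n = 5), with an exact two-sided permutation p of 0.229. That of GAPDH was 0.118 ± 0.0635 under saline (SD, n = 6) and 0.269 ± 0.206 under ghrelin (SD, n = 5), with an exact two-sided permutation p of 0.0541, or 0.108 after Benjamini-Hochberg adjustment over both measures. Ghrelin array 3 had the highest value of both, at 2.62 and 0.62.

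A small share of genes passed the test of ghrelin-treated against saline-treated livers, mostly with changes of less than a doubling. At an adjusted p under 0.05 (limma, Benjamini-Hochberg over all kept probe sets), 171 genes rose (1.76%) and 57 fell (0.585%) under ghrelin, together 2.34% of the genes tested. At an adjusted p under 0.1 the number was 768, and 22.0% of genes had an unadjusted limma p under 0.05. The number called is thus no count of all genes that differed. The increases included the lipogenic transcription factor gene Srebf1, the fibronectin receptor subunit gene Itga5 and the AP-1 subunit gene Jund. The decreases included Plaur, the receptor of urokinase, Olr1, a scavenger receptor for oxidised low-density lipoprotein, the prostaglandin synthase gene Ptgs2 and the fibrillar collagen gene Col3a1. Plaur and Ptgs2 had ghrelin means below the level of the intensity filter. Plaur passed that filter through the saline arrays alone, and Ptgs2 would not have passed it without them. Among the called genes the median size of the change was 0.52, with a range of 0.25 to 1.52, and 85 changed by at least 1.5-fold. A change of at least 1 log2 unit was reached by 10 of the 57 genes that fell and by 3 of the 171 that rose. Over all genes tested the median change was 0.0065 and the middle of the distribution ran from -0.15 to 0.17, so the bulk of the transcriptome lay near 0.

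**Figure D1:**
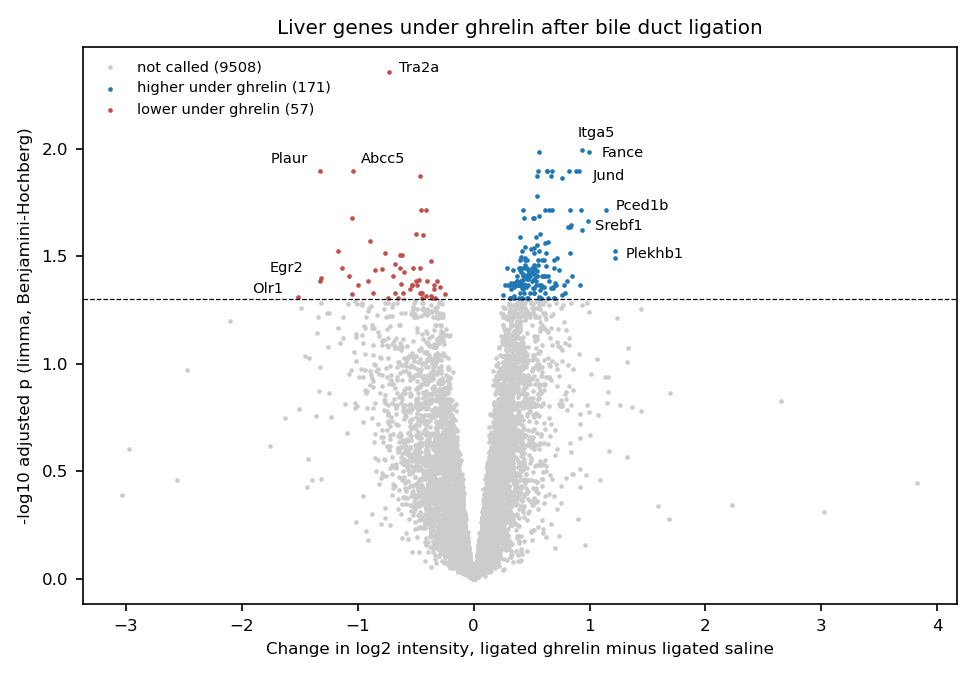
Each point is 1 of the 9736 genes tested. The horizontal axis is the change in log2 intensity (ligated ghrelin minus ligated saline) and the vertical axis is -log10 of the limma adjusted p, with the dashed line at 0.05. The 171 genes called higher (blue) crowd between 0.25 and 1.22, and the 57 called lower (red) reach -1.52; the widest changes, beyond 2 log2 units on either side, are grey, that is, not called.

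The number of calls moved with single rats and settings. It was 34, 232, 40, 450, 47 and 91 without saline rats 1 to 6 in turn, and 65, 22, 79, 370 and 31 without ghrelin rats 1 to 5. With the 11 ligated arrays alone 72 genes were called, 57 of them among the 228 called with all arrays. No called gene changed sign in any of these fits. With the beta-actin 3' minus 5' value as a covariate 23 genes were called, and with that of GAPDH 2, while the median change of the 228 genes in their own direction went from 0.52 to 0.49 with either covariate and their median SE from 0.113 to 0.120 and 0.126. Without ghrelin array 3, which had the highest 3' values, 79 genes were called and the median change of the 228 genes was 0.52. The 228 genes and their directions were selected on these same arrays. Their median change and sign in the other fits are therefore no independent check of the calls. In the plot of calls by setting the spread of the count is shown for every alternative. The calls below are those of the fit to all arrays, and 18 of them held with each of the 11 ligated rats left out in turn.

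**Figure D2:**
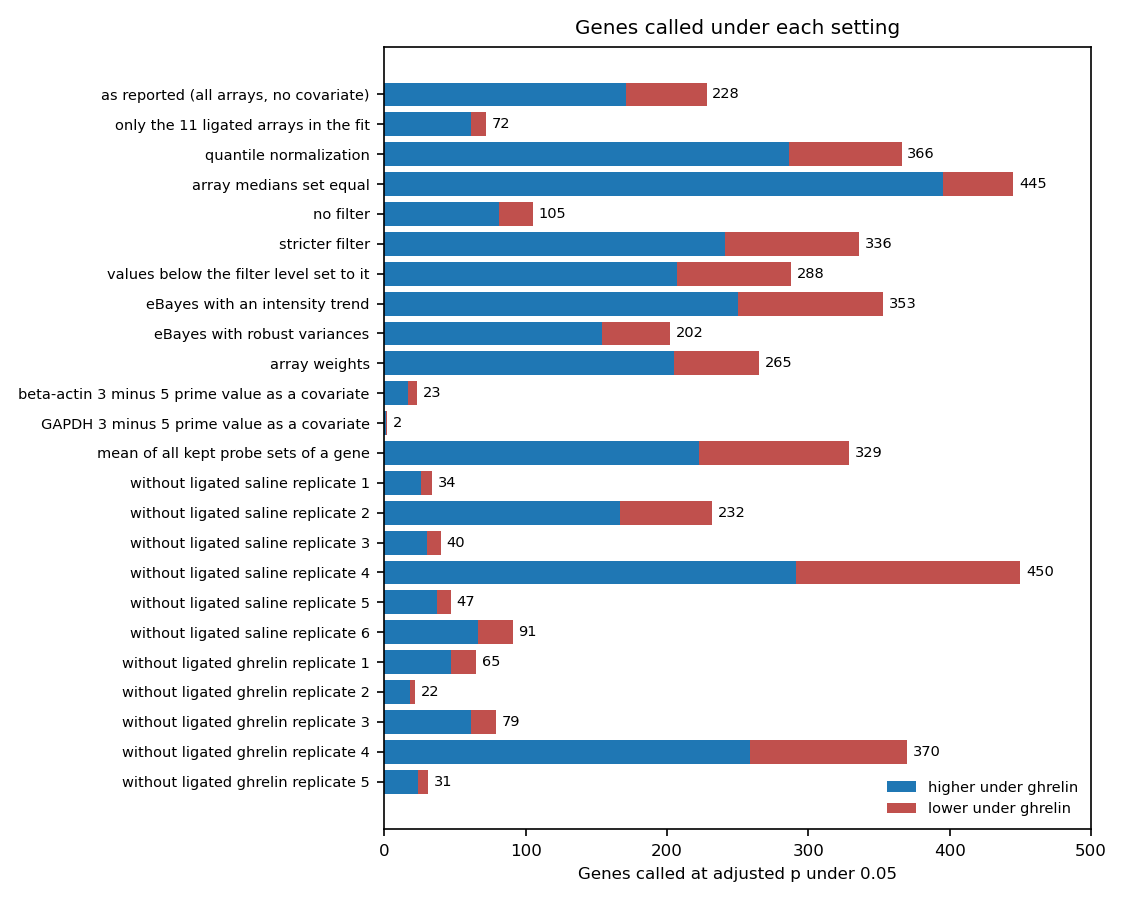
Horizontal bars give the number of genes called at an adjusted p under 0.05 (limma), higher under ghrelin in blue and lower in red, for the fit as reported (228) and for each other setting or left-out rat. The count ran from 2 with the GAPDH covariate to 450 without saline rat 4, and genes called higher outnumbered those called lower in all but the GAPDH setting, where there was 1 of each.

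The 18 calls that held with every rat left out were 14 increases and 4 decreases. The increases were Pced1b, Fance, Itga5, Mrpl38, Jund, Slc25a23, Med25, Abhd17a, Gadd45gip1, Tmem238, Mink1, Hgfac, Bcl7c and Med29, and the decreases were Plaur, Abcc5, Tra2a and Golim4. Plaur passed the filter through the saline arrays alone. The fits with a rat left out kept the filter made on all arrays, so the holding of Plaur was partly built in. Itga5 encodes the alpha 5 subunit that pairs with integrin beta 1 to bind fibronectin. Its log2 intensity was 5.54 to 6.15 under saline, with a median of 5.97, and 6.92, 6.47, 6.96, 6.85 and 6.90 in the ghrelin rats. All ghrelin rats lay above all saline rats, and the change was 0.94 ± 0.134 (SE; limma adjusted p = 0.0101). The sham mean of Itga5 was 6.10, below every ghrelin rat.

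Jund, an AP-1 subunit usually linked to slowed growth and protection from stress, had the same form. It lay between 10.02 and 10.70 under saline (median 10.31) and at 11.11, 11.41, 11.10, 10.98 and 11.32 under ghrelin, a rise of 0.88 ± 0.149 (SE; limma adjusted p = 0.0127). Its mean was 10.11 in sham rats and 10.30 in saline rats, so the ghrelin group stood above both. Slc25a23, a mitochondrial ATP-Mg/phosphate carrier, rose by 0.82 ± 0.138 (SE; adjusted p = 0.0127), from a saline mean of 10.30 to 11.12, with a sham mean of 10.39. Fance, a subunit of the Fanconi anaemia DNA repair complex, rose from a saline mean of 4.06 to 5.06 (change 1.0 ± 0.146, SE; adjusted p = 0.0104), close to the filter level of 3.95, where array signal is weak. Hgfac, the protease that activates hepatocyte growth factor, went from 11.08 to 11.63, and the Mediator subunit genes Med25 and Med29 rose by 0.68 and 0.54.

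Tra2a had the lowest p of all genes. It encodes a splicing regulator that promotes exon inclusion. Its saline values were tight, 8.73 to 8.91 with a median of 8.77, and its ghrelin values were 8.22, 7.78, 8.05, 8.22 and 8.01. No value of one group reached the other, and the fall was 0.73 on the log2 scale (SE 0.0886; limma adjusted p = 0.00441). The ghrelin mean of 8.06 stood beside a sham mean of 8.09. A further probe set of Tra2a fell by 0.94 (adjusted p = 0.0430). Tra2a was the only gene called in every setting and with every rat left out, its adjusted p ranging from 0.00203 to 0.0289. Abcc5, an exporter of cyclic nucleotides and organic anions, fell by 1.04 (SE 0.175; adjusted p = 0.0127) from a saline mean of 6.77 to 5.73, and Golim4, a Golgi membrane protein, by 0.46 from 10.79 to 10.33.

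Plaur, Olr1, Egr2 and Ptgs2 were among the larger decreases. Plaur anchors urokinase at the cell surface, where it activates plasminogen for matrix breakdown. Its log2 intensity was 4.30 to 5.56 under saline, with a median of 5.09, and 3.74, 3.73, 3.51, 3.76 and 3.75 under ghrelin. All ghrelin values lay below the filter level, so Plaur was at least 2.10-fold lower under ghrelin (limma adjusted p = 0.0127), and the sham mean was 2.96. Plaur passed the filter through the 6 saline arrays alone, with 0 sham or ghrelin arrays above the level, so a difference was built into its selection and its call is given as a description. F3 was the only other of the 228 called genes with 0 sham or ghrelin arrays above the level, and it had 5 saline arrays above it. A difference was built into its selection too. Olr1, also called LOX-1, is a lectin-like receptor of endothelial cells and macrophages. It had 6.58, 7.82 and 8.68 as the lowest, median and highest saline values, and 6.09, 5.89, 6.56, 6.06 and 6.34 in the ghrelin rats. The highest ghrelin rat was just under the lowest saline rat, and both groups were far above the sham mean of 3.67. Olr1 fell by 1.52 (SE 0.382; limma adjusted p = 0.0492), a call that held with 2 of the 11 rats left out.

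Egr2, an early growth response transcription factor, fell by 1.33 (SE 0.311; limma adjusted p = 0.0411). Its saline values ran from 5.43 to 7.35 (median 6.48) and its ghrelin values were 4.62, 4.90, 4.89, 5.87 and 5.18. Ghrelin rat 4 lay within the saline range, and the call held with 3 of 11 rats left out. Ptgs2, the inducible cyclooxygenase, fell by 1.07 (SE 0.246; limma adjusted p = 0.0389), with saline values of 4.27 to 5.81 (median 4.92) and ghrelin values of 4.35, 3.64, 4.02, 3.53 and 3.85. Here ghrelin rat 1 overlapped the saline rats, and the call held with 4 of 11 rats left out. The sham means were 4.12 for Egr2 and 3.27 for Ptgs2. The Ptgs2 means under ghrelin (3.88) and in sham lay below the filter level of 3.95, where array signal is weak. Every sham value, at most 3.50, and ghrelin values of 3.64, 3.53 and 3.85 lay below that level. Ptgs2 therefore needed saline arrays to reach the 5 arrays of the filter, so a difference was partly built into its selection.

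These 4 genes are classic targets of inducible transcription factors, and the 100 bases before their starts are shown with matches to searched motifs. They were chosen after the values were seen. The other named decreases with a matched promoter, among them Far1, Abcc9, Lig4, Rab32 and Rgs5, held no searched motif within 250 bases. The 4 shown are thus the ones with a match, and their matches are no trait of the decreases. The sequences come from RefSeq promoters of the build GRCr8, are printed 5′ to 3′ on the gene's strand, and carry in capitals the match to a searched motif: AP-1 (TGANTCA), CRE (TGACGTCA), the CArG box that serum response factor binds, the NF-kB motif, the E-box (CACGTG) and the sterol regulatory element (TCACNCCAC), each on both strands.
Plaur, chr1:89181263-89181362, plus strand: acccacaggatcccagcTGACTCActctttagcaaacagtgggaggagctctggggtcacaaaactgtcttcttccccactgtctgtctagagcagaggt
Olr1, chr4:164634548-164634647, minus strand: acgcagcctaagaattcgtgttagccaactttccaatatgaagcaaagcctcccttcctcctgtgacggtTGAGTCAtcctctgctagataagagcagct
Egr2, chr20:21054442-21054541, minus strand: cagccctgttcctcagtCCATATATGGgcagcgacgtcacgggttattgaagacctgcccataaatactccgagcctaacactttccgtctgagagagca
Ptgs2, chr13:64713963-64714062, plus strand: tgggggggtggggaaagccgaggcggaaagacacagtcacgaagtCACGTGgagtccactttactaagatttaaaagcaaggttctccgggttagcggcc
The Plaur and Olr1 matches are AP-1 motifs that begin 83 and 30 bases before the start, the Egr2 match is a CArG box at 83, and the Ptgs2 match is an E-box at 55. A promoter was matched for 8170 of the genes tested, and within 250 bases before the start AP-1 was found in 4.28% of them, the CArG box in 1.36% and the E-box in 8.58%. Among genes that fell, 3 of 50 promoters held AP-1, 2 the CArG box and 7 the E-box, and among genes that rose 9 of 154 held AP-1, 5 the CArG box and 17 the E-box. No gene in either group held the NF-kB motif within the window, which 0.428% of all promoters did. A match describes letters only and does not make a binding site.

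Other large decreases among genes whose groups did not overlap included those of Far1, Arl11, Abcc9 and Lig4. Far1, which makes fatty alcohols for ether lipids, fell by 1.05 (SE 0.197; limma adjusted p = 0.0211), from a saline mean of 6.52 to 5.47, and held with 10 of 11 rats left out. Arl11, a small GTPase of macrophages and other cells, fell by 1.17 from 7.05 to 5.88, and Rab32, a GTPase of lysosome-related organelles, by 0.77 from 10.00 to 9.23. Abcc9, a regulatory subunit of potassium channels in vascular and mural cells, fell by 0.87 from 8.14 to 7.27, below its sham mean of 7.42. Lig4, a DNA ligase of end joining, fell by 0.89, but its further probe set changed by -0.13 with an adjusted p of 0.663. The remaining decreases of this size were Afap1l2 (-0.91), Ints6l (-0.85, with -0.36 and -0.40 in further probe sets that did not pass), Olfml1 (-0.79), the mitochondrial fission gene Dnm1l (-0.74) and the bicarbonate carrier gene Slc4a7 (-0.65). Called genes with overlapping groups, named here after their values were seen, included the collagen lysyl hydroxylase Plod2 (-1.13), the scavenger receptor Colec12 (-1.32), the beta-glucan receptor Clec7a (-1.0), B3galnt1 (-1.05) and tissue factor, F3 (-0.62).

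The largest increase among genes whose groups did not overlap was that of Plekhb1, which encodes a membrane-associated pleckstrin homology protein. It lay at 7.35 to 8.95 under saline (median 8.53) and at 9.57, 9.88, 9.74, 8.99 and 9.76 under ghrelin, a rise of 1.22 ± 0.257 (SE; limma adjusted p = 0.0324). Ghrelin rat 4 was only just above the highest saline rat, the sham mean was 10.03, and the call held with 6 of 11 rats left out. Pced1b rose by 1.14 ± 0.209 (SE; adjusted p = 0.0193), from a mean of 5.37 to 6.51. Prtg, a further gene up by more than 1 log2 unit, had overlapping groups and is named after its values were seen (1.22 ± 0.248, SE; adjusted p = 0.0299).

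Increases of 0.83 to 0.99 were found in genes of several functions. Sec31a, a coat protein of vesicles leaving the endoplasmic reticulum, rose by 0.99 from a saline mean of 6.79 to 7.78. Adrm1, a ubiquitin receptor of the proteasome, rose by 0.93 from 7.00 to 7.93, and Mrpl38, a mitochondrial ribosomal protein, by 0.91 from 7.06 to 7.97. Nfic, a nuclear factor I transcription factor, rose by 0.92, with the highest value, 10.52, in ghrelin rat 3. Its call held with 3 of 11 rats left out. Prkaca, the catalytic subunit of protein kinase A, rose by 0.83 from 6.62 to 7.46, Sema4g by 0.83 from 7.66 to 8.49, Rtp3, a liver-enriched receptor transporter protein, by 0.85 from 9.47 to 10.32, and Igf2bp3, an mRNA-binding protein, by 0.84 from 7.60 to 8.44. For Igf2bp3 the sham mean was higher still, at 9.97.

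**Figure D3:**
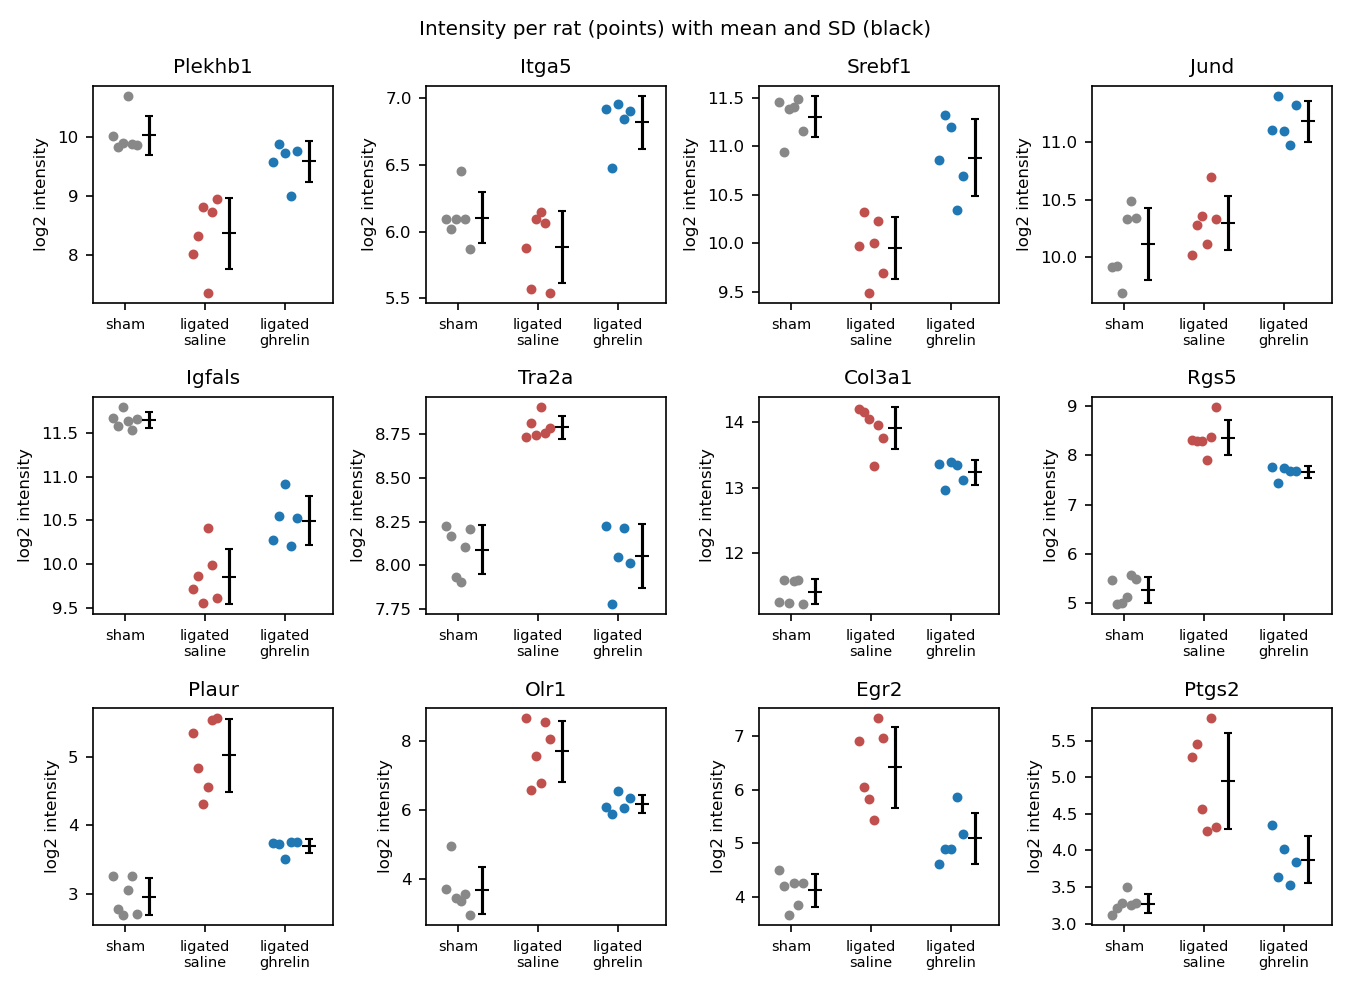
Log2 intensity of 12 genes in each rat (points) with the group mean and SD (black), for sham (n = 6), ligated saline (n = 6) and ligated ghrelin (n = 5). Itga5 and Jund stand above both other groups under ghrelin, Tra2a is near its sham mean, and Col3a1, Rgs5, Plaur, Olr1, Egr2 and Ptgs2 are lower than under saline but above the sham mean.

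Fibrous matrix genes had lower means under ghrelin, although few passed the test. Of 28 matrix genes tested, 1 fell and 0 rose (3.57%, beside 2.34% of all genes), 27 had a change below 0, where 48.9% of all genes did, and 18 had an unadjusted p under 0.05, where 22.0% of all genes did. Their median change was -0.67, beside 0.0065 for all genes, and it stayed between -0.82 and -0.57 in every other setting and with each rat left out. The gene that fell was Col3a1, the fibrillar collagen type III chain. It lay at 14.21, 14.16, 14.05, 13.34, 13.95 and 13.76 in the saline rats and at 13.36, 12.96, 13.39, 13.35 and 13.11 under ghrelin, a fall of 0.68 (SE 0.145; limma adjusted p = 0.0342). The saline rat at 13.34 overlapped the ghrelin rats, and both groups were above the sham mean of 11.42. That rat was saline rat 4, and without it 10 matrix genes were called. Without saline rat 1, 3 or 5 or ghrelin rat 1, 2 or 5 the number called was 0. It was also 0 with the ligated arrays alone, without a filter and with either RNA control covariate. The Col3a1 call held with 5 of 11 rats left out.

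Among collagens the 13 chains had a median change of -0.68 and the 15 glycoproteins and cross-linking enzymes one of -0.58. Col1a1, the fibrillar collagen type I chain, was at 9.47 to 11.10 under saline and 9.47, 9.47, 9.88, 9.47 and 9.51 under ghrelin, a difference of -0.74 ± 0.303 (SE; limma adjusted p = 0.173). Ghrelin rats 1, 2 and 4 were as low as the lowest saline rat. Col6a3 differed by -1.08 (adjusted p = 0.0528) and Lox, which cross-links collagen, by -1.33 (adjusted p = 0.133). Postn, a matrix protein of activated fibroblasts, had the widest difference, -2.47 (adjusted p = 0.106), with saline rats from 3.89 to 10.64 and ghrelin rats from 4.09 to 5.57. Fn1 at -0.08 and Eln at -0.13 were near 0, and Col18a1 alone was above 0, at 0.23. The summed intensity of the 28 genes was 45556.3 to 83187.4 under saline, 39576.8 to 53308.7 under ghrelin and 19820.1 to 26448.1 in sham rats, so the ligated groups overlapped and both exceeded sham.

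**Figure D4:**
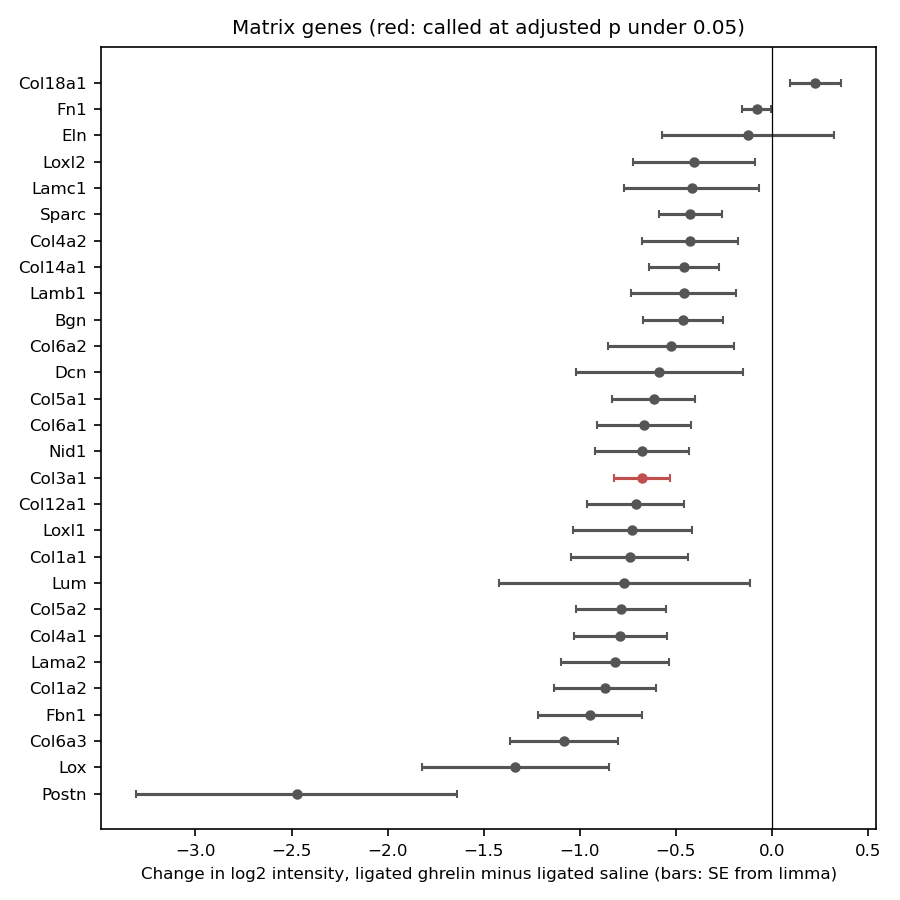
Change in log2 intensity (ligated ghrelin minus ligated saline, with the SE from limma) of the 28 matrix genes tested, ordered by size. All but Col18a1 lie below 0, Col3a1 (red) is the gene called, and Postn, the largest difference at -2.47, has the widest error.

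Markers of stellate cells and myofibroblasts had lower means too. Of 15 tested, out of 18 on the array, 1 fell (6.67%, beside 2.34% of all genes). A change below 0 was found in 14, where 48.9% of all genes had one, and the median was -0.40. Rgs5, a regulator of G protein signalling in pericytes and stellate cells, fell by 0.70 (SE 0.158; limma adjusted p = 0.0389), from 7.91 to 8.98 under saline to 7.76, 7.45, 7.73, 7.69 and 7.69 under ghrelin, with no overlap and a sham mean of 5.27. Acta2, the smooth muscle actin of myofibroblasts, differed by -0.46 ± 0.290 (SE; adjusted p = 0.372), with 6.37 to 7.54 under saline and 6.07 to 6.68 under ghrelin. The summed intensity of the list was 9929.9 to 20496.7 under saline, 8766.3 to 12315.1 under ghrelin and 2382.9 to 3243.0 in sham rats. In whole liver RNA, fewer cells of a type and less RNA per cell cannot be told apart. The part of stellate cell number in the matrix values was not tested.

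Of 12 matrix proteases and inhibitors 1 fell (8.33%, beside 2.34% of all genes). It was Plaur, which passed the filter through the saline arrays alone. A change below 0 was found in 11, where 48.9% of all genes had one, and the median was -0.48. The gelatinase gene Mmp2 differed by -0.96 ± 0.253 (SE; limma adjusted p = 0.0535) and the protease inhibitor gene Timp1 by -0.60 ± 0.308 (SE; adjusted p = 0.276). In the TGF-beta pathway, the main fibrogenic signal, 1 of 24 genes rose and 0 fell (4.17%, beside 2.34% of all genes). The median was -0.16, or -0.08 without saline rat 1. The gene that rose was Tgfbi, a matrix protein induced by TGF-beta (0.52 ± 0.111, SE; adjusted p = 0.0349), with means of 11.38 under saline and 11.90 under ghrelin and in sham. The ligand gene Tgfb1 was higher in all 5 ghrelin rats, 7.53 to 7.76, than in the saline rats, 7.18 to 7.47, but did not pass (0.31 ± 0.193, SE; adjusted p = 0.372). Its SD was 0.0999 under saline, 0.0914 under ghrelin and 0.545 in sham rats. The SE draws on the spread of all 3 groups, so the sham rats widened it. For the called gene Ptgs2 they narrowed it, with an SD of 0.126 in sham, 0.651 under saline and 0.324 under ghrelin. Over all genes the median SD was 0.196 in sham, 0.198 under saline and 0.191 under ghrelin. With the ligated arrays alone 72 genes were called in place of 228. The receptor gene Tgfbr1 differed by -0.43, also without overlap (adjusted p = 0.0584). Over all genes tested, 4.53% had groups without overlap.

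Inflammatory genes also had lower means on balance. Of 36 cytokine, chemokine and related genes, Ptgs2 fell (2.78%, beside 2.34% of all genes) and 0 rose. Ptgs2 would not have passed the filter without its saline arrays. A change below 0 was found in 27, where 48.9% of all genes had one, and the median was -0.29. In the limma fit 10 had an unadjusted p under 0.05, where 22.0% of all genes did. The 16 chemokines had a median of -0.41, and the 12 cytokines, receptors or adhesion molecules one of -0.18. The 8 NF-kB proteins or feedback genes had a median near 0, at -0.03. Ccl2, which draws monocytes, was at 7.35 to 9.32 under saline and 7.26, 6.76, 7.28, 7.77 and 7.52 under ghrelin, a difference of -0.87 ± 0.307 (SE; limma adjusted p = 0.121). The interferon-induced chemokine genes Cxcl9 and Cxcl10 differed by -1.51 (adjusted p = 0.163) and -1.10 (adjusted p = 0.211), and Il1b by -0.13. Tnf was not tested, since 0 and 3 arrays of its probe sets exceeded the filter level.

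Markers of the immune cells themselves gave no call. The 18 macrophage and Kupffer cell markers had a median of -0.26, 17 were below 0 and 1 had an unadjusted p under 0.05. Without ghrelin rat 2 that median was -0.15, with 14 below 0, and the lymphocyte median given below was -0.25. Their summed intensity was 55800.8 to 80318.5 under saline and 42492.6 to 67497.6 under ghrelin. The complement gene C1qb, which macrophages make, differed by -0.40 ± 0.165 (SE; limma adjusted p = 0.173). The 5 neutrophil markers tested had a median of 0.28, or 0.13 without saline rat 5 or ghrelin rat 1 or 3 and 0.47 to 0.53 without saline rat 1, 2 or 6 or ghrelin rat 2, with S100a8 at 0.64 ± 0.304 (SE; adjusted p = 0.236). The 6 lymphocyte markers had a median of -0.39. Among them Ptprc, the leukocyte antigen CD45, differed by -0.50 (adjusted p = 0.176), while a further probe set of Ptprc fell by 0.99 (adjusted p = 0.0358). The 17 endothelial markers had a median of -0.12, or -0.02 without ghrelin rat 2 and -0.21 without ghrelin rat 3, and the 4 red cell markers one of 0.29, with 0 calls in either list. At an unadjusted p under 0.05 the limma fit had 0 neutrophil, 2 lymphocyte, 2 endothelial and 0 red cell markers. Of 8 MHC class II genes 7 were below 0, with a median of -0.49, and 21 interferon response genes had a median of -0.11 that ran from -0.31 without saline rat 3 to -0.01 without saline rat 6 or ghrelin rat 4, again with 0 calls in limma and with 0 and 2 genes at an unadjusted p under 0.05. Irf8, a transcription factor of macrophages and dendritic cells in that list, was lower in all ghrelin rats (8.27 to 8.92) than in the saline rats (9.05 to 9.72), with a difference of -0.65 (adjusted p = 0.0841).

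Bile duct epithelium markers did not share a direction. Of 19 tested, 0 were called, 1 had an unadjusted p under 0.05, 10 were above 0 and the median was 0.03. Krt19, the keratin of cholangiocytes, was at 9.14 to 10.90 under saline and 10.34, 10.14, 10.05, 10.21 and 10.04 under ghrelin, a difference of 0.03 ± 0.517 (SE; limma adjusted p = 0.976), against a sham mean of 5.10. Spp1, or osteopontin, which ducts and macrophages secrete, differed by -1.25 ± 0.462 (SE; adjusted p = 0.136). Genes of bile acid synthesis and its regulators (19 tested) and hepatobiliary transporters (16 tested) had 0 calls, 2 unadjusted p values under 0.05 each, and medians of 0.09 and 0.14. The transporter median was 0.06 to 0.08 without saline rat 1 or 6 or ghrelin rat 2 or 4. Cyp7a1, the rate-limiting enzyme of bile acid synthesis, differed by -0.14 ± 0.244 (SE; adjusted p = 0.777), and Abcb11, the bile salt export pump, by 0.17 ± 0.168 (SE; adjusted p = 0.579). The hepatocyte transcription factor gene Hnf4a was above all saline rats in all ghrelin rats (12.21 to 12.40 against 11.67 to 12.20) without passing (0.35 ± 0.102, SE; adjusted p = 0.0714). Further probe sets of Hnf4a differed by -0.27 (adjusted p = 0.739) and 0.06 (adjusted p = 0.922), so they did not share a sign.

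Genes of fatty acid synthesis were higher on balance under ghrelin, with Srebf1 as the gene that rose. Srebf1 encodes SREBP-1, the transcription factor that switches on lipogenic enzymes. Its log2 intensity was 9.97, 10.32, 9.48, 10.00, 10.23 and 9.69 in the saline rats and 10.86, 11.33, 11.20, 10.34 and 10.69 in the ghrelin rats. Ghrelin rat 4 was barely above the highest saline rat, and the sham mean, 11.31, was above the ghrelin mean of 10.89. The rise was 0.94 ± 0.180 (SE; limma adjusted p = 0.0240), a further probe set of Srebf1 rose by 0.74 (adjusted p = 0.0358), and the call held with 8 of 11 rats left out. Of 39 genes of fatty acid synthesis and storage 1 rose and 0 fell (2.56%, beside 2.34% of all genes). A change above 0 was found in 30, where 51.1% of all genes had one. In the limma fit 16 had an unadjusted p under 0.05, and the median was 0.23.

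The synthetic enzymes among them had a higher median, 0.39 over 25 genes. Fasn, fatty acid synthase, differed by 0.61 (limma adjusted p = 0.133), the elongase gene Elovl6 by 0.91 (adjusted p = 0.0901), the desaturase gene Fads2 by 1.16 (adjusted p = 0.115) and the lipid droplet gene Pnpla3 by 1.70 (adjusted p = 0.137). The 14 uptake or droplet genes had a median of 0.06 and 0 calls, and Fabp4, Lpl and Cd36 had the lowest values among them. Fabp4, a fatty acid binding protein of macrophages, endothelium and adipocytes, differed by -1.35 with no overlap (adjusted p = 0.0719), Lpl, lipoprotein lipase, by -1.01 (adjusted p = 0.0528), and Cd36, a fatty acid translocase that also binds growth hormone-releasing peptides, by -0.36 ± 0.344 (SE; adjusted p = 0.577).

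All 22 genes of cholesterol synthesis and uptake had a change above 0, with a median of 0.28, 0 calls and 8 unadjusted p values under 0.05. After quantile normalization 21 were above 0, and without saline rat 1 the count was 17 and the median 0.17. The largest difference was in Tm7sf2, a sterol reductase gene, at 0.84 (adjusted p = 0.156), and Scarb1, the receptor of high-density lipoprotein, was higher in all ghrelin rats (9.98 to 10.36) than in the saline rats (9.51 to 9.90), with 0.39 ± 0.102 (SE; limma adjusted p = 0.0523). A further probe set of Scarb1 differed by 0.11 (adjusted p = 0.792). Of 33 genes of fatty acid oxidation and ketogenesis 1 rose, Pex16, a peroxisome assembly gene (0.62 ± 0.154, SE; adjusted p = 0.0468), and the median was 0.04. A further probe set of Pex16 differed by 0.14 (adjusted p = 0.497). Of 28 glucose genes 1 rose, Pfkl, the liver phosphofructokinase (0.55 ± 0.125, SE; adjusted p = 0.0389), and the median was 0.05. The mitochondrial citrate carrier gene Slc25a1, which exports carbon for lipid synthesis, rose by 0.56, and the lipid droplet gene Fitm2 by 0.65. Both lie outside the lists and were named after their values were seen. Cideb, a lipid droplet and lipoprotein assembly gene that stands in the apoptosis list, rose by 0.83 ± 0.159 (SE; adjusted p = 0.0232), from a saline range of 8.92 to 9.73 to ghrelin values of 10.19, 10.68, 10.34, 9.84 and 10.41, with a sham mean of 10.96.

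The growth hormone and IGF axis held 2 increases and 1 decrease among 21 genes tested (14.3%, beside 2.34% of all genes). In this list 12 genes were above 0 and 9 below. The median was 0.08 and ran from -0.07 to 0.24 with a rat left out. Igfals, the acid labile subunit that holds IGF-1 in its circulating complex and is a growth hormone target in hepatocytes, rose by 0.64 ± 0.146 (SE; limma adjusted p = 0.0389). Its saline values were 9.55 to 10.41 (median 9.79) and its ghrelin values 10.28, 10.55, 10.92, 10.20 and 10.52, so the groups overlapped, and the sham mean of 11.65 lay above both. Igfbp4, an IGF binding protein, rose by 0.52 ± 0.118 (SE; adjusted p = 0.0382) without overlap, from a mean of 9.15 to 9.68. Jak2, the kinase of the growth hormone receptor and of many cytokine receptors, fell by 0.49 (SE 0.117; adjusted p = 0.0430) without overlap, from 7.39 to 6.91, with a sham mean of 6.48. These 3 calls held with 3, 3 and 2 of 11 rats left out.

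Igf1 itself differed by 0.12 ± 0.0967 (SE; limma adjusted p = 0.493), with 13.92 to 14.39 under saline and 14.20, 14.45, 14.55, 14.12 and 14.28 under ghrelin. Igfbp3 differed by 0.19 (adjusted p = 0.529), the growth hormone receptor gene Ghr by 0.27 (adjusted p = 0.319), and the feedback gene Socs2 by 0.33 ± 0.554 (SE; adjusted p = 0.768). Igfbp1, which rises with fasting and low insulin, differed by -0.61 ± 0.343 (SE; adjusted p = 0.315), and Cish and Igfbp2 by 1.32 and 1.07 with adjusted p values of 0.271 and 0.173. The ghrelin gene Ghrl and the receptor gene Ghsr had 0 arrays above the filter level and were not tested. The 18 male-biased and 15 female-biased liver genes, which follow the pattern of growth hormone secretion, had 0 calls, 0 unadjusted p values under 0.05, and medians of 0.01 and 0.05. Cyp2c11, the male-specific cytochrome, ran from 3.09 to 8.89 under saline and from 4.86 to 9.63 under ghrelin, a spread that left its difference of 0.40 ± 0.887 (SE; adjusted p = 0.831) without a firm sign.

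Other hepatocyte functions gave few calls with medians on the positive side. Of 41 genes of the urea cycle and amino acid catabolism 0 were called, and 10 had an unadjusted p under 0.05, where 22.0% of all genes did. A change above 0 was found in 33, where 51.1% of all genes had one, and the median was 0.23. Sdsl, a serine dehydratase-like gene, was at 0.75 ± 0.199 (SE; limma adjusted p = 0.0551). Among 31 secreted proteins and coagulation factors 0 were called and 5 had an unadjusted p under 0.05, 28 were above 0, with a median of 0.14, or 0.08 without saline rat 1, and Proc, protein C, at 0.28 (adjusted p = 0.0796). The 39 phase I and 26 phase II drug metabolism genes had 0 calls, 6 and 7 unadjusted p values under 0.05, and medians of 0.12 and 0.25. The phase I median was 0.04 without saline rat 1, 0.06 without ghrelin rat 2 and 0.19 without ghrelin rat 3. Gstm2, a glutathione transferase, differed by 0.82 (adjusted p = 0.0819) and Cyp3a2 by 0.91 (adjusted p = 0.308). Of 18 heme and iron genes 1 rose, Alad, the second enzyme of heme synthesis (0.46 ± 0.0969, SE; adjusted p = 0.0331). The 24 antioxidant genes and the 21 acute phase genes had 0 calls, 4 and 1 unadjusted p values under 0.05, and medians of 0.09 and 0.01. In the acute phase list A2m, alpha-2-macroglobulin, differed by -1.36 ± 0.560 (SE; adjusted p = 0.174).

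Cell division genes had lower means in most cases, with no call. Of 36 tested 0 were called, 0 had an unadjusted p under 0.05, and 30 were below 0, with a median of -0.21. The median was -0.09, -0.06, -0.07 and -0.10 without saline rats 1, 3 and 4 and ghrelin rat 1, and -0.47, -0.32 and -0.36 without saline rats 5 and 6 and ghrelin rat 4. Without saline rat 3 the number below 0 was 21. The proliferation marker gene Mki67 was at 8.11 to 9.81 under saline and 8.13, 8.25, 8.92, 9.21 and 8.23 under ghrelin (-0.43 ± 0.319, SE; limma adjusted p = 0.451), beside a sham mean of 4.44. Among 13 cell cycle brakes and p53 targets 0 were called, 1 had an unadjusted p under 0.05 and the median was -0.02, with Gadd45b, a stress-induced growth arrest gene, at -0.95 (adjusted p = 0.115). Of 24 apoptosis regulators 1 rose, Cideb, 10 had an unadjusted p under 0.05 and the median was -0.14. Of 21 immediate early genes 1 rose, Jund, and 1 fell, Egr2, with a median of -0.08. Fos, Jun and Egr1 differed by -0.42, -0.08 and -0.42, with adjusted p values of 0.579, 0.869 and 0.315.

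Of 25 circadian clock and output genes 0 were called, 4 had an unadjusted p under 0.05 and the median was -0.14, or -0.07 to -0.04 without saline rat 2 or 5 or ghrelin rat 1 or 3. The clock repressor gene Nfil3 differed by 0.64 ± 0.186 (SE; limma adjusted p = 0.0712). The 26 endoplasmic reticulum stress genes and 12 heat shock genes had 0 calls, 3 and 1 unadjusted p values under 0.05, and medians of 0.02 and 0.01, with the chaperone genes Calr at 0.43 (adjusted p = 0.0535) and Hspa4 at -1.01 (adjusted p = 0.0752). Of 45 genes of the mitochondrial respiratory chain 40 were above 0, where 51.1% of all genes were, with a median of 0.11 and 0 calls. An unadjusted p under 0.05 was found for 13, where 22.0% of all genes had one. Ndufs3, a complex I subunit, was at 0.36 (limma adjusted p = 0.0554). With array medians set equal 6 of these 45 were called. The 35 proteasome subunits and 38 cytosolic ribosomal proteins had 0 calls, and 9 and 3 unadjusted p values under 0.05, where 22.0% of all genes had one. Their medians were 0.03 and -0.04. The ribosomal median was 0.03 with array medians set equal. Among 7 vasoactive genes the adrenomedullin receptor gene Calcrl was lower in all ghrelin rats (5.90 to 6.51) than in the saline rats (6.66 to 7.36), a difference of -0.82 ± 0.242 (SE; adjusted p = 0.0741).

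**Figure D5:**
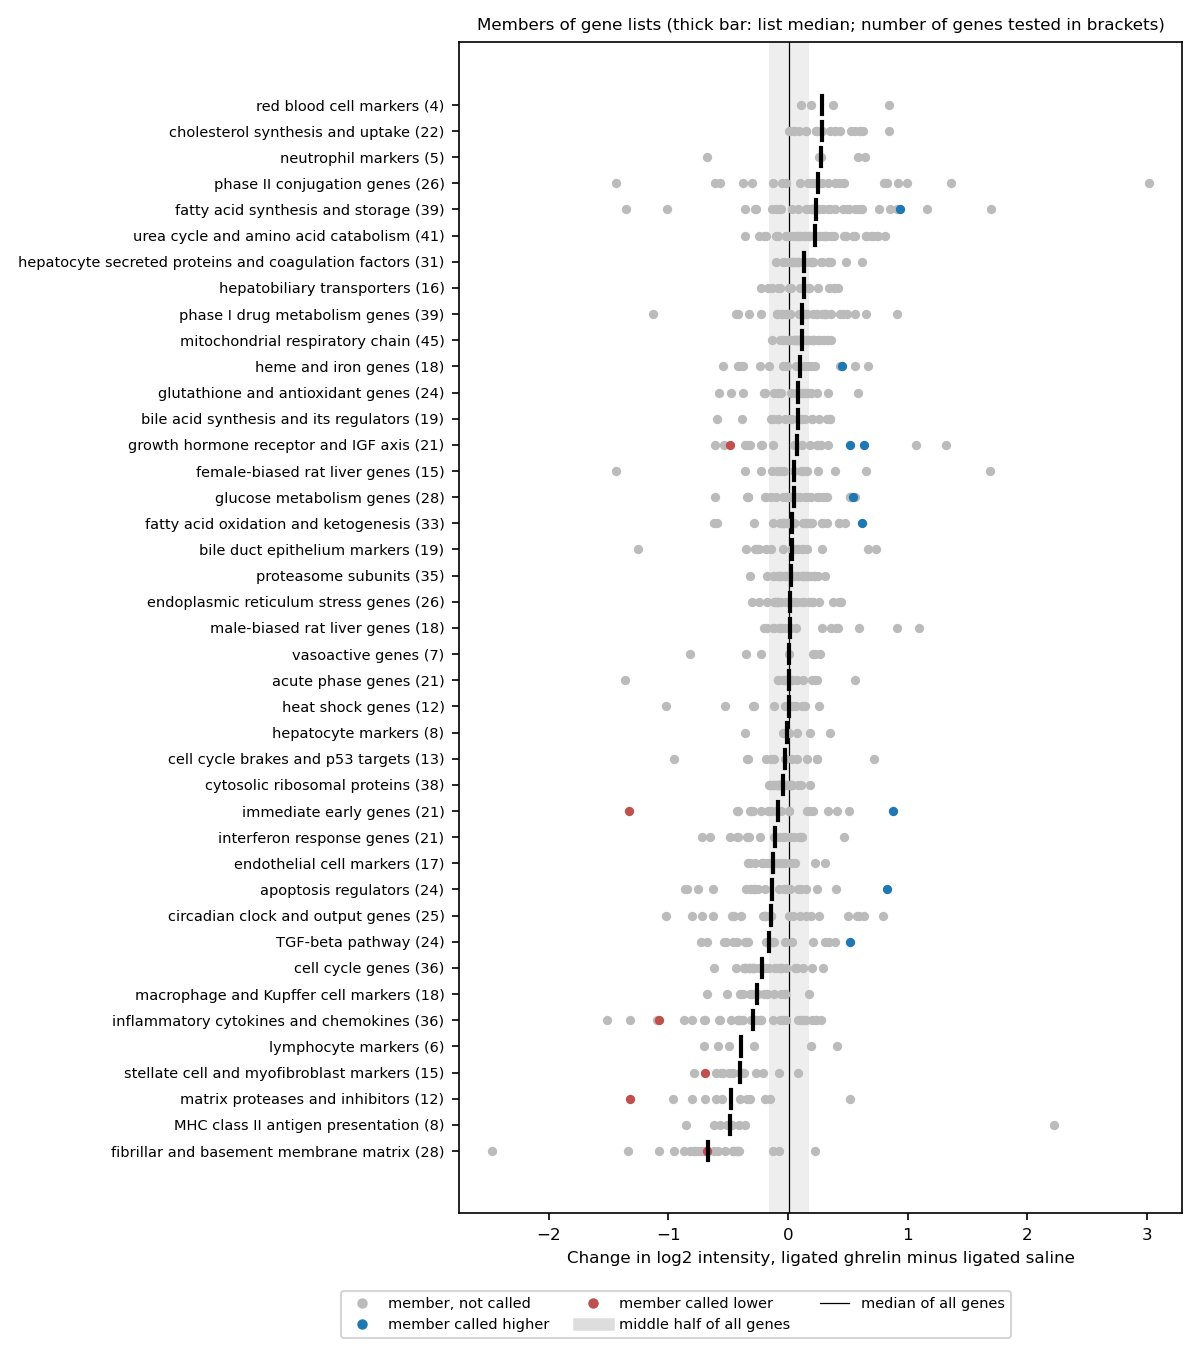
Change in log2 intensity (ligated ghrelin minus ligated saline) of every tested member of 41 gene lists, with the list median as a black bar and the middle part of all genes, -0.15 to 0.17, in grey. Matrix, protease, stellate cell and MHC class II lists have medians of -0.67 to -0.40. The fatty acid synthesis, cholesterol, amino acid, phase II conjugation, neutrophil and red blood cell lists have medians of 0.23 to 0.29. Coloured points are called members, at most 3 in a list and 0 in 29 of the 41.

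Genes that rose and genes that fell differed in length. The median gene length was 11.9 kb for those that rose, 42.7 kb for those that fell and 24.1 kb for those not called. With genes divided by length into 4 equal classes, in the shortest class 75 rose and 7 fell, and in the longest 19 rose and 23 fell. The median change ran from 0.07 in the shortest class through 0.03 and -0.02 to -0.06 in the longest. Per array, the median deviation of the longest class minus that of the shortest lay at 0.107, 0.0514, 0.0937, -0.0235, 0.110 and -0.0293 in saline rats 1 to 6 and at -0.0351, -0.138, 0.0144, -0.0173 and -0.163 in ghrelin rats 1 to 5. Ghrelin rats 2 and 5 were lowest, and without them in turn 22 and 31 genes were called. The part of gene length or of RNA integrity in the calls was not tested beyond the covariate fits above.

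Further probe sets of the same genes gave mostly the same sign. There were 84 further kept probe sets for 56 of the called genes, of which 79 had the sign of the brightest one, 6 were called the same way and 0 the other way. Over all probe sets 210 rose and 145 fell, 2.22% of 15965, and 49 of these had no single gene symbol.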

How the data were processed

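Total RNA of each liver was labelled with biotin from an oligo-dT primer and hybridised to 1 array. The deposited intensity values per probe set were made by the authors with GCRMA, per the submitters' processing notes; the sources used here do not give its version or settings. The values were linear and were converted to log2 without a pseudocount. Left out were 57 control probe sets, and kept were the 15965 of 31042 others that exceeded the median of all values (log2 3.95) on at least 5 arrays. Of these 31042, 20826 had 1 gene symbol in the platform annotation, 436 several and 9780 none listed, and 20758 matched the RefSeq annotation of GRCr8, which gave names and gene lengths. Each gene was represented by its brightest kept probe set over the 17 arrays.

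The model of 3 group means used limma 3.58.1 under R 4.3.3 (lmFit, eBayes, 14 residual and 2.54 prior degrees of freedom, no covariate), with Benjamini-Hochberg adjustment over all kept probe sets and calls at an adjusted p under 0.05. The number of arrays limits the precision. The labels name separate rats but no batch, cage or date. Rats are numbered in deposit order within a group.

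Named genes were the 15 called genes without overlap between groups that rose most and the 15 that fell most, called members of each of 41 gene lists (up to 6, or else the member with the lowest p), and 22 set genes. Of 966 list genes on the array 873 were tested. Members, lists and rules were chosen with earlier results of these data known. Lists are described by counts and medians only. Over all genes tested 2.34% were called, 22.0% had an unadjusted limma p under 0.05, 51.1% were above 0 and 48.9% below. Alternatives were the ligated arrays alone, other scalings, filters, variance models and weights, RNA control values as covariates, the mean of a gene's probe sets, and each ligated rat left out.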

Additional observations from a re-analysis of the deposited data

Results flagged for a closer look

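In 9 of 178 sets of values examined (each named gene or array measure within a group of ligated rats), 1 rat stood apart from the rest by Dixon's criterion, and chance alone flags about 1 set in 20. Ghrelin rat 3 gave 4 of the 9. It was the highest of its group for Igf2bp3 (8.92), Ccne1 (5.24) and Col1a1 (9.88) and the lowest for Plaur (3.51), and it also had the highest 3' minus 5' control values. For Col1a1 ghrelin rats 1, 2 and 4 shared a value (9.47), and for Ccne1 ghrelin rats 2, 4 and 5 did (4.496). With such ties the criterion readily flags a rat that differs. All ghrelin values of Plaur lay below the filter level. Ghrelin rat 2 was the lowest for Itga5 (6.47) and Rgs5 (7.45). Ghrelin rat 1 was the lowest for Hnf4a (12.21) and ghrelin rat 5 for Bpgm (8.45). Saline rat 4 was the highest for Alad (11.31).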

How the results depend on the processing

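No paired analysis was possible because no replicate number occurs in more than 1 group's titles. Among 228 genes, 355 probe sets, 40 named genes and 15 list genes called, fewer were called with the ligated arrays alone (72, 118, 13 and 5), without a filter (105, 154, 20 and 6), with the beta-actin covariate (23, 44, 9 and 2) and with the GAPDH covariate (2, 4, 1 and 0). More were called after quantile normalization (366 genes, 541 probe sets), with array medians set equal (445 genes, 611 probe sets, 31 list genes) and with an intensity trend in the variances (353 genes, 29 list genes), and with the mean of a gene's probe sets 25 list genes were called. Array medians set equal made 88.8% of calls increases, against 75% as reported. With single rats left out the counts ran from 22 to 450 genes, 35 to 653 probe sets, 8 to 39 named genes and 2 to 47 list genes. The 3' minus 5' differences between groups then ran from 0.05 to 0.23 for beta-actin and from 0.064 to 0.19 for GAPDH, the latter with an exact permutation p of 0.0476, 0.0429 and 0.0286 without saline rat 3, ghrelin rat 4 and ghrelin rat 5. All 40 named calls, which were selected on the same arrays, kept their sign throughout. The sign turned for 7 genes that were not called: Cyp2c11 with array weights (-0.066), Krt19 with the beta-actin (-0.11) and GAPDH (-0.16) covariates, Igfbp3 (-0.017) and Cd36 (0.13) with the GAPDH covariate, and, with a rat left out, Krt19 (-0.16 to 0.19), Cyp2c11 (-0.36 to 1.02), Socs2 (-0.067 to 0.72), Cyp7a1 (-0.27 to 0.029) and Alb (-0.0045 to 0.025). The cause of these shifts was not tested.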

Other observations

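Most of the largest differences between group means were not called. Of 16 genes that differed by at least 1.5 log2 units, 15 were not called, and 5 of these were RT1 genes of the rat major histocompatibility complex. In the 5 genes given here, also not called, rats of one group lay far apart, most of them either high or near the filter level and a few between. Ubd, a ubiquitin-like protein, was at 14.01 in saline rat 1 and between 3.82 and 7.11 in the other saline rats, and at 3.79, 13.79, 4.87, 14.65 and 14.63 in the ghrelin rats. Ugt2b, a steroid glucuronosyltransferase, was at 2.94, 5.54 and 3.16 in saline rats 1, 5 and 6 and at 3.77 in ghrelin rat 4, and at 13.84 to 14.20 in the other ligated rats. RT1-Bb was at 2.57 and 3.24 in saline rats 1 and 5 and at 10.71 to 12.86 in the other ligated rats. RT1-CE5 was at 2.64 and 2.73 in ghrelin rats 4 and 5 and at 7.84 to 11.46 in the other ligated rats. RGD1309362 was at 3.29, 2.91 and 3.07 in ghrelin rats 1, 2 and 4 and at 8.03 to 10.78 in the other ligated rats. Some sham rats also stood apart, with Ubd at 11.65 and 10.63 in sham rats 3 and 4 and at 4.44 to 5.63 in the others, and Ugt2b at 9.35 in sham rat 2 and 14.03 to 14.27 in the others. These genes were chosen after their values were seen.

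Genes for mitochondrial ribosomal proteins, counted by symbol after the calls were seen and so without a test, held 7 increases and 0 decreases among 73 tested, where 1.76% of all genes rose. The 7 were Mrpl10 (0.38), Mrpl28 (0.32), Mrpl35 (0.50), Mrpl37 (0.46), Mrpl38 (0.91), Mrpl51 (0.42) and Mrps5 (0.38). Of the 73, 65 were above 0, where 51.1% of all genes were, and the median was 0.15, while the 38 cytosolic ribosomal proteins had a median of -0.04. Mediator subunits, counted in the same way, held 4 increases (Med16, Med22, Med25 and Med29) among 28 tested, of which 13 were above 0, with a median of -0.03.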
